A study of Mus musculus with 8 samples.

Results

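The cells described here are 156 lung cells that carry the authors' labels cDC1 (66 cells), pDC (50 cells) and DC_mature (40 cells). They were chosen by those labels alone, out of 41106 labelled cells from 8 mice. The 127 cells labelled cDC2, the commoner conventional dendritic cell of the lung, served as the common point of comparison. Single-cell RNA sequencing with the 10x 3' v3 chemistry was done on lungs of mice that had breathed cigarette smoke (CS, 4 mice named C2, C5, D2 and D5) or room air (RA, 4 mice named F1, F3, M1 and M3) for 10 months. Smoke from 3R4F reference cigarettes was given for 6 h a day on 5 days a week. All mice of both groups were C57BL/6 animals carrying Sftpc-CreERT2 and the mTmG reporter, and all received tamoxifen at 8 to 10 weeks of age. Cre is driven from the promoter of a surfactant gene of the alveolar epithelium, so dendritic cells were by design left with the membrane tdTomato reporter. CD45-positive and CD45-negative cells were separated on magnetic columns and mixed again at 10% to 90%, which is why cell shares are given here among immune cells only. Each of 4 lanes held 1 CS and 1 RA library.

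Dendritic cells take up antigen, carry it to T cells and present it on MHC molecules. The cDC1 lineage specialises in showing antigen from other cells to CD8 T cells and follows the chemokine XCL1 through its receptor XCR1, while plasmacytoid dendritic cells (pDC) read viral nucleic acids in endosomes and can release large amounts of type I interferon. A mature dendritic cell has been activated, has switched on the chemokine receptor CCR7 and leaves the tissue through lymphatic vessels whose endothelium makes the CCR7 ligand CCL21.

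The labels came from clusters of the same transcript counts, so differences between labels are descriptions and carry no test. They are given with the spread over mice and with the number of mice in which they held. A level is the mean, over mice with at least 3 cells of the label, of transcripts per 10000 of the cell, which left 7 mice for cDC1, 5 for pDC, 7 for DC_mature and 8 for cDC2. A share of cells counts all cells of the label in which any transcript of the gene was found, and its exact 95% interval covers counting error only. Where no cell had a transcript, the share that a limit of 3 cells of the total allows is given instead, which bounds cells with a transcript at this depth and not cells expressing the gene. Most of the cells lay together. A single deposited cluster held 65 of the cDC1, 48 of the pDC, 39 of the DC_mature and 121 of the cDC2 cells, next to 100 cells labelled M, so that the 3 rare labels were assigned within it. The remaining DC_mature cell, of mouse F1, lay in a cluster with 195 cells labelled Multiplet. The remaining cDC1 and pDC cells lay in a cluster with 343 non-classical monocytes and 186 cells labelled Multiplet. The median cell held 13876 transcripts in cDC1, 12057 in DC_mature, 9712 in cDC2 and 8347 in pDC, and libraries held 31882952 to 55485617 transcripts. Among all cells, 394 had a barcode that also occurred in another library, of which 2 were among the 156. In 4 libraries the sex-linked transcripts went against the labelled sex, all of them CS libraries; no comparison here uses sex.

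The 3 labels were first placed on their receptors. Xcr1 (chr9:123852315-123862029, minus strand) encodes the receptor of cDC1, Siglech (chr7:55768178-55778925, plus strand) the surface lectin of mouse pDC, and Ccr7 (chr11:99144196-99155077, minus strand) the receptor of departing mature cells. The intervals span whole protein-coding genes on GRCm38. The stretches of 120 bases just before the RefSeq start sites (build GRCm38.p6, 5′ to 3′ on the gene's own strand) are shown for Xcr1 and for some pDC genes. The pDC genes shown are ones with CACCTG on either strand, a form of the E-box, a motif that E-proteins such as TCF4 can bind. Whether TCF4 binds there was not tested. Capitals mark the letters CACCTG, or CAGGTG where the motif lies on the other strand. Other forms of the E-box were not searched for and stay in lower case, such as cacgtg in the Siglech stretch.
Siglech, chr7:55768064-55768183, plus strand: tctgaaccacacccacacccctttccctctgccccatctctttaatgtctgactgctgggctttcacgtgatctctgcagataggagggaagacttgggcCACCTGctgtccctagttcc
Ccr9, chr9:123767091-123767210, plus strand: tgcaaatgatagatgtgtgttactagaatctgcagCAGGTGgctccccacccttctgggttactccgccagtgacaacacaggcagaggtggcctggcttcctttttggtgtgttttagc
Klk1, chr7:44225240-44225359, plus strand: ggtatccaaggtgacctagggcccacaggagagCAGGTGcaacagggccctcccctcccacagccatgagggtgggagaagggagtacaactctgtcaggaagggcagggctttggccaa
Xcr1, chr9:123862030-123862149, minus strand: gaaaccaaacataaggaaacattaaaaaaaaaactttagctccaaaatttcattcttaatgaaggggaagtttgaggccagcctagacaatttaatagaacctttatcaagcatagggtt

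The first letter of the motif lay 20 bases before the start of Siglech, 85 before that of Ccr9 and 87 before that of Klk1, a kallikrein protease gene. Over windows from 250 bases before to 50 after the start, searched on both strands, the motif occurred in 11 of 21 windows (52.4%) of the 18 pDC genes that met the naming rule, which are the 15 listed below with Lrp8, Rpgrip1 and Tmem229b. It occurred in 2 of 12 windows (16.7%) of the 16 cDC1 genes and 5 of 20 (25%) of the 19 DC_mature genes that met it, while 6640 of 32851 windows of all genes (20.2%) held it. The 21 pDC windows belong to 15 genes, 9 of which held the motif in at least 1 window, among them Grm8, Mctp2, Lrp8, Sla2, Tmem163 and Tmem229b. The share over all genes was taken by window only, so the 9 of 15 genes have no matching share beside them. A match is a stretch of letters and not a bound site, and its absence from the Xcr1 stretch says only that these letters are not in it.

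The cells of each label were counted per mouse. There were 8, 6, 12 and 13 cDC1 cells in the CS mice C2, C5, D2 and D5 and 0, 13, 6 and 8 in the RA mice F1, F3, M1 and M3. For pDC the numbers were 2, 11, 2 and 10 in CS and 0, 11, 11 and 3 in RA, and for DC_mature 7, 6, 0 and 4 in CS and 6, 7, 7 and 3 in RA. Mouse F1 had no cDC1 and no pDC, and mouse D2 no DC_mature cell. In F1 this was 0 of 806 immune cells, which allows a share of up to 0.372%, and in D2 0 of 1648, which allows up to 0.182%.

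**Figure D1:**
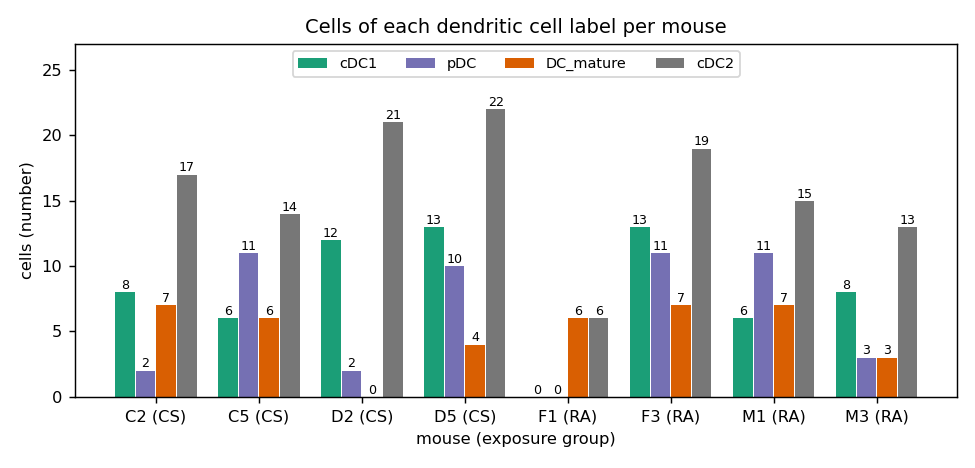
Number of cells (vertical axis) of each dendritic cell label in each of the 8 mice (horizontal axis, 4 CS then 4 RA). The cDC1 bars reach 13 cells, the pDC bars 11 and the DC_mature bars 7, and F1 has no bar for cDC1 or pDC.

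Among immune cells, cDC1 made up 0.761% ± 0.246 in CS and 0.653% ± 0.502 in RA (mean ± SD, n = 4 mice each), and the groups overlapped. The share of pDC was 0.501% ± 0.399 in CS and 0.597% ± 0.524 in RA. DC_mature cells made up 0.369% ± 0.284 in CS and 0.594% ± 0.191 in RA, and cDC2 cells 1.46% ± 0.328 and 1.33% ± 0.419. No label had a difference past the spread between mice by an exact two-sided permutation test over 70 assignments, with p = 0.743 for cDC1, 0.629 for pDC, 0.286 for DC_mature and 0.686 for cDC2, and an adjusted p of 0.743 (Benjamini-Hochberg over 4 labels) for each. The smallest p this design allows is 0.0286 before adjustment, so that after it a single differing label could not pass 0.05, and the test says little about whether the exposures differ. CS was higher than RA in 2 of 4 lanes for cDC1, 2 of 4 for pDC and 1 of 4 for DC_mature. The CS minus RA difference for cDC1 changed sign without mouse F1 (0.108 percentage points with it, -0.109 without it). All further values pool the exposures.

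The cDC1 cells were the only dendritic cells with Xcr1 in more than a few cells. The level of Xcr1 was 1.94, 1.42, 1.82 and 1.87 in the CS mice and 2.07, 0.969 and 1.79 in the RA mice F3, M1 and M3. It was found in 43 of 66 cDC1 cells (65.2%, interval 52.4 to 76.5), in 2 of 40 DC_mature cells, in 0 of 50 pDC, which allows up to 6.00%, and in 0 of 127 cDC2, which allows up to 2.36%. All 7 mice with cDC1 cells had Xcr1, while a share of 0.0857% of B cells, which should lack it, had a transcript at a median depth of 4055. With cells thinned to 2000 transcripts, which left out the 3 cDC1 cells under that depth, Xcr1 was found in 34.9% of cDC1 cells.

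Of 14 listed cDC1 markers, 11 were set apart upwards from cDC2 in cDC1, meaning at least 4-fold higher and higher in every mouse with both cells, against 0.982% of the 8861 genes measured (87 genes). These were Xcr1, Clec9a, Cadm1, Itgae, Wdfy4, Naaa, Tlr3, Ppt1, Snx22, Gcsam and Ifi205. The labels were made from such genes, so nothing is read from this count. Wdfy4, a BEACH-domain protein needed for cross-presentation, was at 14.4 to 24.8 across mice (median 18.6) in cDC1 and at 1.32 to 4.08 in cDC2. Mice did not overlap, and the mean of 18.6 ± 4.04 (SD, n = 7) was 5.58-fold that of DC_mature, the next dendritic label. Itgae, the integrin chain CD103 that holds cells to E-cadherin, was at 2.42 to 3.29 in cDC1 and at 0 to 0.651 in DC_mature, with a mean 8.48-fold higher. Ppt1, a lysosomal thioesterase, ran from 3.68 to 8.73 in cDC1, and in every other dendritic label each mouse lay at or under 1.17.

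Clec9a, the receptor for actin exposed on dead cells, was less exclusive. It was found in 61 of 66 cDC1 cells (92.4%, and 52.4% after thinning) but also in 23 of 50 pDC (46.0%) and in 41 of 127 cDC2. Its level was 2.05 to 6.91 in cDC1, 0.184 to 2.99 in pDC and 0.137 to 0.863 in cDC2, so that cDC1 and pDC overlapped between mice. Cadm1, an adhesion molecule of cDC1, was likewise high in both, at 6.98 to 22.1 in cDC1 and 0.861 to 9.21 in pDC, and was set apart from cDC2 in each.

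By the rule of the largest ratio to the other dendritic labels, the cDC1 genes included Xcr1, P3h2, Itgae, Ppt1, Wdfy4, Rab7b, Ifi205, Mllt3, Dock5, Lrrk2, Arsb, Htr7, St3gal5 and Rtl8b. P3h2, a prolyl hydroxylase that modifies collagen, was at 1.39 to 5.10 in cDC1 and was found in no pDC and no cDC2 cell. On the other side stood the genes lowest against cDC2: Ccl9, Cybb, Cd209a, Cd7, Zeb2, Plaur, Ms4a4c and Tmem176b, led by a chemokine and by the catalytic chain of the phagocyte NADPH oxidase. Cd209a, a C-type lectin of cDC2, was at 0 to 0.519 in cDC1 against 2.56 to 8.78 in cDC2, and Zeb2, a transcriptional repressor, at 0 to 1.7 against 9.03 to 17.1. In all 81 genes were set apart downwards in cDC1 (0.914%).

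**Figure D2:**
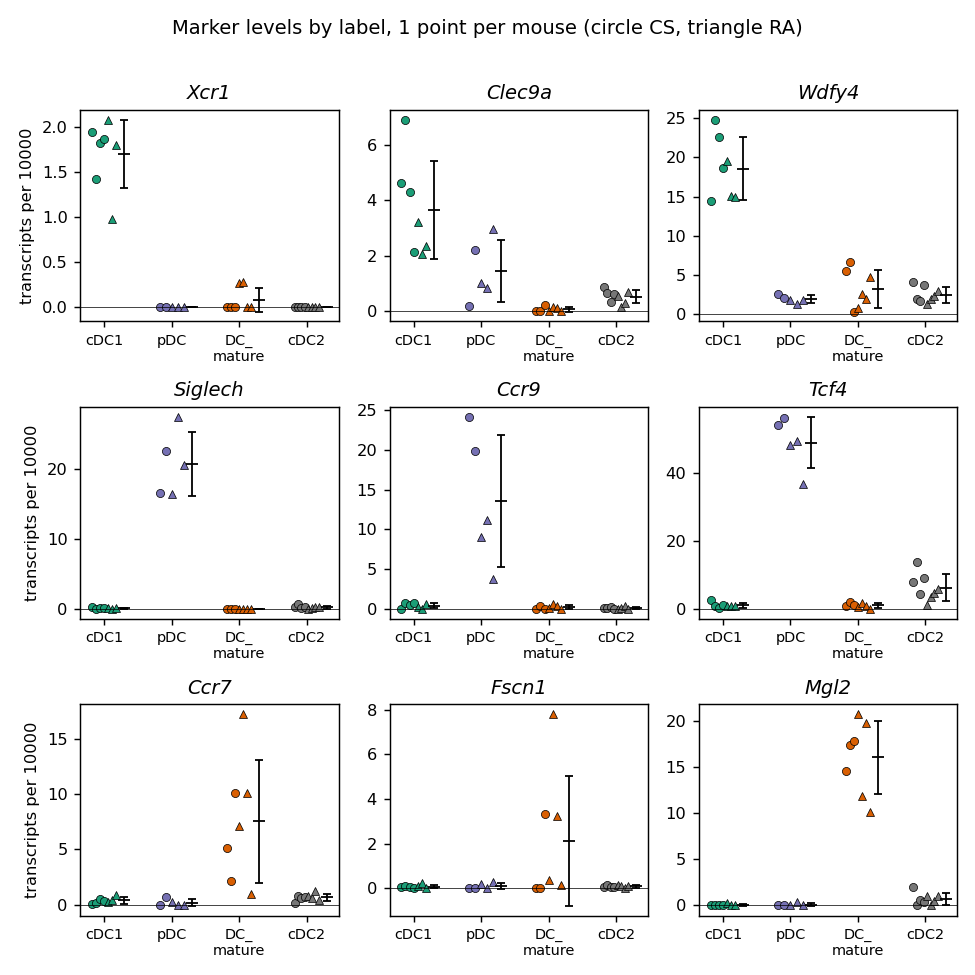
Level of marker genes in transcripts per 10000 (vertical axis) by label (horizontal axis), 1 point per mouse (circle CS, triangle RA), with the mean and SD beside the points. Siglech lies above 16 in each mouse with at least 3 pDC cells, Xcr1 between 0.969 and 2.07 in cDC1, and Ccr7 in DC_mature runs from 0.940 to 17.3.

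Against cDC2, 258 of 8770 measured genes (2.94%) were set apart upwards in pDC and 309 (3.52%) downwards, more than in the other 2 labels, although the direction had to hold in only 5 mice here and in 7 there. With 1 in place of 0.1 added to each level, the counts upwards and downwards were 54 and 34 in pDC, 14 and 7 in cDC1, and 16 and 4 in DC_mature. The level of Siglech was 16.5 and 22.6 in the CS mice C5 and D5 and 16.4, 27.4 and 20.5 in the RA mice F3, M1 and M3, a mean of 20.7 ± 4.61 (SD, n = 5). It was 65.9-fold higher than in cDC2, the next of all lung cell types, on a scale to which 0.1 was added. Siglech was found in 49 of 50 pDC (98.0%, interval 89.4 to 99.9), in 8 of 66 cDC1, in 14 of 127 cDC2 and in 0 of 40 DC_mature cells, which allows up to 7.5%. In B cells the share was 0.171%.

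Of the 16 listed pDC markers 15 were measured and 13 were set apart upwards, against 2.94% of all measured genes, a count the labels largely fix: Siglech, Ccr9, Bst2, Tcf4, Runx2, Spib, Klk1, Cox6a2, Ly6d, Pacsin1, Cd300c, Tlr7 and Atp1b1. Ccr9, the receptor for the gut and thymus chemokine CCL25, varied widely among mice. It was at 24.2 and 19.9 in the CS mice C5 and D5 and at 8.99, 11.1 and 3.72 in F3, M1 and M3, still 28.8-fold over cDC1 on average, where it was at 0 to 0.758. Pacsin1, an endocytic adaptor, was at 6.26 to 11.9 and 33.0-fold higher than in cDC1. Bst2, the virus-tethering surface protein and target of a pDC antibody, was at 21.2 to 46.4 in pDC and at 1.99 to 9.42 in cDC2. Klk1 and Cox6a2, a cytochrome oxidase subunit best known from muscle, were at 2.45 to 9.81 and 2.83 to 7.15 in pDC, and neither was found in a cDC1, DC_mature or cDC2 cell.

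In pDC the largest ratios to the other dendritic labels were those of Grm8, Mctp2, Ly6d, Siglech, Cmah, Cox6a2, Klk1, Pacsin1, Iglc3, Sla2, Ccr9, Tmem163, Cacna1e, Prkca and Dntt. Grm8, a metabotropic glutamate receptor, was at 16.9 to 23.6 in pDC and at most 0.302 in any mouse of the other dendritic labels. Its next highest lung cell type, smooth muscle, was at 0.112. Ly6d, a surface protein of early B lineage cells, was at 7.77 to 16.5 in pDC, and B cells came next at 10.9. Dntt, the template-free DNA polymerase of antigen receptor rearrangement, and the immunoglobulin light chain gene Iglc3 are known from B lineage cells as well. Iglc3 has near-identical neighbours, so its reads are uncertain. The B cell receptor chains Cd79a and Cd79b were at 0 to 1.62 and 0.170 to 2.08 in pDC, highest in F3, and at 0 to 0.389 and 0 to 0.421 in cDC2, and their part in these values was not tested.

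In pDC, Ifitm3, Il1b, Lyz2, Ms4a6c, Plbd1, Zbtb46, Nlrp3 and Ckb had the lowest ratios to cDC2. Ifitm3, an antiviral membrane protein, was at 0 to 0.468 in pDC against 16.1 to 38.7 in cDC2. Lyz2, the lysozyme of macrophages and alveolar type 2 cells, was at 0 to 0.689 in pDC against 3.76 to 27.6 in cDC2.

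Several transcription factors separated the labels mouse by mouse. TCF4, the E-protein that sets pDC fate, had a transcript level of 54.2, 56.3, 48.2, 49.6 and 37.0 in the 5 mice with at least 3 pDC cells (Tcf4, mean 49.1 ± 7.5) and of 1.16 to 13.8 in cDC2. Spib, an ETS factor of pDC and B cells, was at 4.98 to 9.81 in pDC, at 0.264 to 0.512 in cDC2 and in no cDC1 cell, and Runx2 was at 10.5 to 17.6 in pDC. The inhibitor of E-proteins Id2 went the other way. Id2 was at 5.65 to 8.09 in cDC1, at 0.129 to 12.1 in DC_mature, at 0 to 1.31 in cDC2 and at 0 to 0.260 in pDC. Zbtb46, the factor of conventional dendritic cells, was at 2.04 to 5.4 in cDC1, 3.03 to 5.91 in DC_mature and 2.03 to 4.21 in cDC2, which all overlapped, and at 0 to 0.0808 in pDC. Batf3, which cDC1 need, was at 0.581 to 1.54 in cDC1, 0.331 to 1.45 in DC_mature and 0 to 0.844 in cDC2, and in no pDC, so that its level did not separate cDC1 from the other conventional labels. Zfp366 (DC-SCRIPT) was set apart from cDC2 in cDC1 and DC_mature. Of 19 listed factors found, cDC1 had 2 set apart upwards and 3 downwards, pDC 3 and 5, and DC_mature 2 and 4. The shares over all measured genes were 0.982% and 0.914%, 2.94% and 3.52%, and 0.801% and 0.669%.

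**Figure D3:**
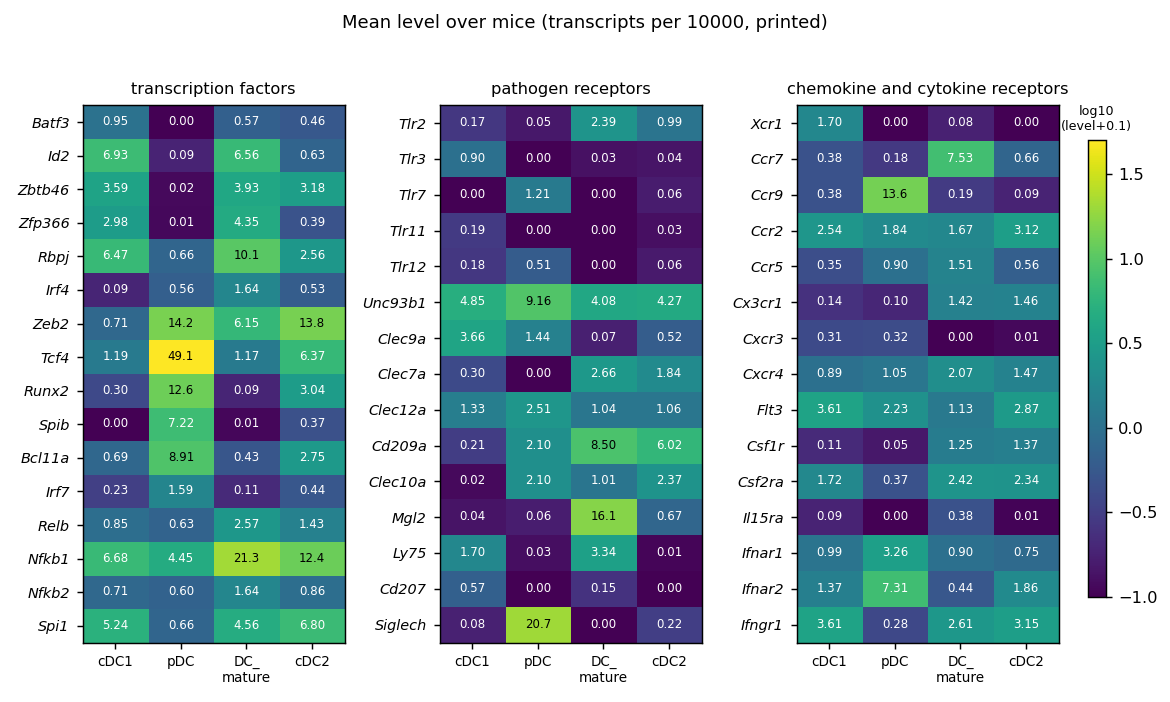
Mean level over mice, in transcripts per 10000 (printed in each cell, with colour for log10 of the level plus 0.1), of transcription factors, pattern recognition receptors and chemokine or growth factor receptors (rows) by label (columns). Tcf4 and Siglech are highest in pDC (49.1 and 20.7), Id2 is at 6.93 in cDC1 and 6.56 in DC_mature, and Xcr1, Ccr9 and Ccr7 each peak in another label.

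Of the 21 listed pattern recognition receptors, 4 were set apart upwards and 3 downwards of 16 measured in cDC1, 2 and 2 of 12 in pDC, and 1 and 0 of 14 in DC_mature, where the shares of all measured genes were those given for the transcription factors. Tlr3, the endosomal receptor for double-stranded RNA, was at 0.156 to 1.32 in cDC1, in 33 of 66 cells, and in no pDC. Tlr7, the endosomal receptor for single-stranded RNA, was at 0.676 to 1.87 in pDC, in 25 of 50 cells, and in 0 of 66 cDC1 and 0 of 40 DC_mature cells. Tlr9 was found in 0 of 50 pDC, which allows up to 6.00% of cells with a transcript and says nothing on the protein. Irf7, the factor behind interferon output, was at 0.795 to 3.04 in pDC and 0.0627 to 0.869 in cDC2, which overlapped. Of the 20 interferon-stimulated genes listed, 14 were measured in pDC, with Stat2 and Bst2 set apart upwards and Ifitm3 downwards, where 2.94% and 3.52% of all measured genes were. None of the 24 listed genes of the secretory pathway was set apart in any of the 3 labels, and their median log2 ratio to cDC2 was 0.39 in pDC beside 0.14 for all measured genes.

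The cells labelled DC_mature were less uniform than the label. The level of Ccr7 was 5.09, 2.16 and 10.1 in the CS mice C2, C5 and D5 and 7.12, 17.3, 10.1 and 0.940 in the RA mice F1, F3, M1 and M3, a mean of 7.53 ± 5.57 (SD, n = 7), and 10.0-fold that of cDC2. Each mouse was above its own cDC2, but the highest and lowest mice differed widely. Ccr7 was found in 28 of 40 cells (70%, interval 53.5 to 83.4; 47.5% after thinning), and in 20.5% of cDC2 cells. B cells use CCR7 themselves (65.0%), so the share in alveolar macrophages, 1.67% at a median depth of 5559, stands for the background here. Against cDC2, 73 of 9116 measured genes (0.801%) were set apart upwards in DC_mature and 61 (0.669%) downwards, and of the 13 measured markers of mature cells Ccr7 and Ccl22 were among them. The median log2 ratio of these 13 markers to cDC2 was 2.08, beside -0.22 for all measured genes, and the 15 listed markers summed to 19.5 to 86.5 in DC_mature and 4.74 to 12.8 in cDC2, with no overlap between mice. The 9 listed markers of cDC2 summed to 28 to 50.5 in DC_mature and to 13 to 20.7 in cDC2. Their median log2 ratio to cDC2 was 0.43 over the 8 measured, of which Mgl2 and Tnip3 were set apart upwards and Ms4a4c downwards. A large part of the sum came from Mgl2 (mean 16.1 against 0.673 in cDC2) and Tnip3 (9.41 against 1.74). Fscn1, the actin bundler of mature cell dendrites, was at 0, 0, 3.32, 0.354, 7.81, 3.25 and 0.170 in C2, C5, D5, F1, F3, M1 and M3, and in 10 of 40 cells (25%, interval 12.7 to 41.2; 12.5% after thinning). The share of B cells with Fscn1 was 1.84%.

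Among genes that met the naming rule, the largest ratio to the other dendritic labels was that of no listed maturation marker but of Mgl2. Mgl2 encodes the C-type lectin CD301b of a cDC2 subset. The unnamed gene 5430437J10Rik followed closely, at 20.8-fold. Mgl2 was at 14.6, 17.5 and 17.9 in C2, C5 and D5 and at 20.8, 11.8, 19.8 and 10.1 in F1, F3, M1 and M3, while the highest cDC2 mouse was at 1.93. The mean of 16.1 ± 4.02 was 20.9-fold that of cDC2, and 33 of 40 cells (82.5%, interval 67.2 to 92.7) had it beside 11% of cDC2 and 0.171% of B cells. The next of all lung cell types were the cells labelled M, at a mean level of Mgl2 of 4.72, from which DC_mature differed 3.36-fold. Mgl2 and Clec10a are close paralogs, and how reads matching both were counted is not given in the sources used here. Among other genes, Cd209a was at 2.74 to 15.8, overlapping cDC2, and Tnip3, a partner of the NF-kappaB brake A20, was at 3.63 to 14.8 against 0.956 to 3.16 in cDC2. Axl, a receptor kinase for dying cells, was at 1.89 to 4.38 against 0 to 0.821.

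Seen cell by cell, the label held cells of different content. Of 6 genes of the mature program (Fscn1, Cacnb3, Mreg, Il4i1, Socs2 and Il12b, picked from the 15 listed markers after their values had been seen), 6 of 40 cells held 3 or more, each of them at least 4. A further 6 cells held 2 of them, 12 held 1 and 16 held none. The 6 cells came from 5 mice (C2, D5, F1 and M1 with 1 each, F3 with 2), and no cDC1, pDC, cDC2 or M cell held 3. Ccr7 was found in all 6 at a mean of 33.4 per 10000, and Ccl5 in all 6, at 177 and 35.2 in the 2 cells of F3 and at 127, 23.9, 1.34 and 0.735 in those of M1, F1, D5 and C2. Mgl2 was in only 1 of the 6 and Cd209a in none. Of the other 34 cells, 32 had Mgl2, 29 Cd209a and 33 Axl, and Ccr7 was found in 22 at a mean of 3.69 over the 34. Ccl5 was also found in 16 of these 34, at a mean of 5.88 over all of them. Of the 9 other listed markers of mature cells, the 6 cells held a median of 7.5 (4 to 9) and the other 34 a median of 5 (2 to 6). Not all of these 9 followed, as Ccl22 was found in 4 of the 6 cells and in 26 of the 34. The 2 sets had similar depth, with medians of 12567 and 11868 transcripts.

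**Figure D4:**
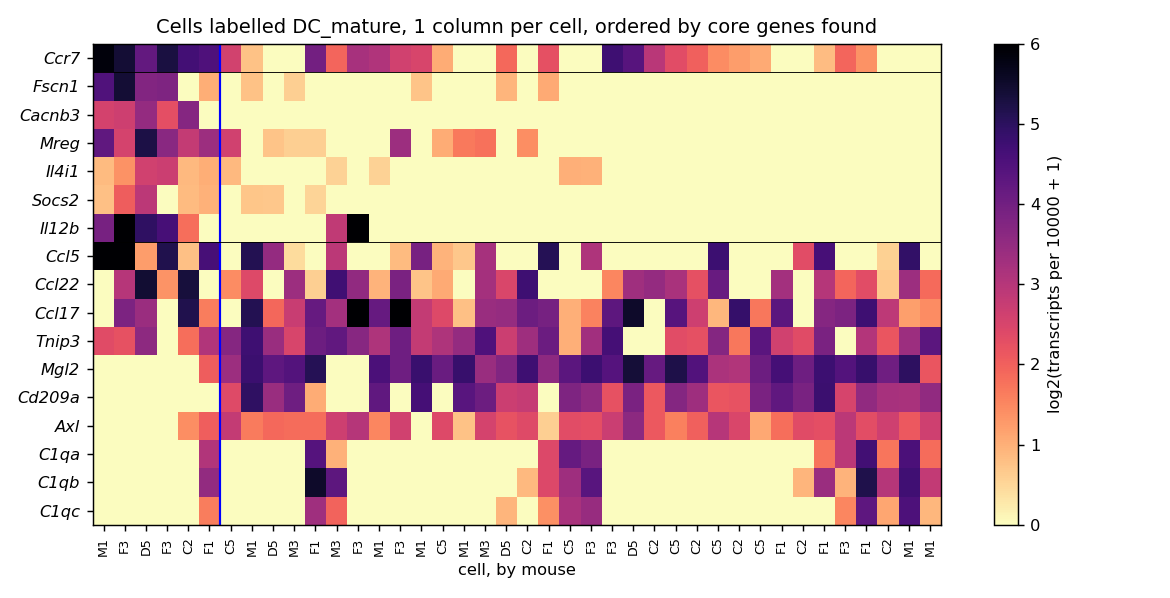
The 40 cells labelled DC_mature, 1 column per cell and ordered by the number of core genes found, with genes in rows and colour for the level in transcripts per 10000. The 6 cells with at least 4 core genes stand at one end with Ccr7, and Mgl2, Cd209a and Axl fill most of the other 34.

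Macrophage transcripts were present in some of these cells. At least 2 of the complement genes C1qa, C1qb and C1qc were found in 12 of 40 DC_mature cells, 5 of them among the 6 cells of mouse F1, beside 0 of 66 cDC1, 0 of 50 pDC, 2 of 127 cDC2 and 98 of 101 cells labelled M. The F1 cell that lay among cells labelled Multiplet held all 3 of these genes. The level of C1qa was 0.332, 2.86 and 0 in C2, C5 and D5 and 9.90, 2.89, 3.61 and 0.320 in F1, F3, M1 and M3. The summed level of the 4 interstitial macrophage markers (the 3 C1q genes and Apoe) was 0.680 to 32.6 in DC_mature and 0 to 10.2 in cDC2. Over the cells of all mice, none of the 4 was absent from either label. In cDC2, C1qa was at 2.17 in C2, at 3.43 in D2 and at most at 0.0310 in the other mice. Without the C1q-bearing cells, 119 genes instead of 61 were set apart downwards and 101 instead of 73 upwards. That removal took 5 of 6 DC_mature cells of F1 and 1 of 3 of M3, which left both mice under 3 cells. The direction then had to hold in fewer mice, and the part of this in the counts was not tested. Without mouse F1, 96 genes were set apart downwards. Neutrophil markers (S100a8, S100a9, Csf3r, Retnlg) summed to 0 to 22.9 in DC_mature and 0 to 22.5 in cDC1. Their part in the results was not tested. Monocyte markers (Ly6c2, Ccr2, Fcgr1, F13a1) summed to 3.42 to 13.1 in pDC and 1.84 to 9.52 in cDC2. Single cells were also counted by 4 monocyte genes, which may not all be the 4 summed here. At least 2 of the genes counted were found in 51 of 127 cDC2 cells, against 2 of 66 cDC1, 4 of 50 pDC and 1 of 40 DC_mature cells. Without those cDC2 cells, the genes set apart upwards and downwards numbered 91 and 70 in cDC1, 236 and 262 in pDC, and 69 and 61 in DC_mature.

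The summed level of the 12 genes of MHC class II and its loading was 691 to 838 in DC_mature, 376 to 568 in cDC1, 268 to 614 in cDC2 and 44.0 to 139 in pDC. H2-Aa, the alpha chain of MHC class II, was at 103 to 138 in DC_mature and at 45.7 to 99.6 in cDC2, with no overlap between mice, at 64.7 to 93.0 in cDC1 and at 6.91 to 21.1 in pDC. Its chaperone Cd74 was at 327 to 422 in DC_mature, 168 to 279 in cDC1, 129 to 292 in cDC2 and 21.7 to 77.8 in pDC. No gene of the class II list reached 4-fold over cDC2 in DC_mature or cDC1. Of all 32 cell types, 6 of the 12 genes were highest in DC_mature and 2 in cDC1, among the latter Ciita. Among all genes found in 50% of the label's cells, 154 of 2422 were highest in DC_mature and 156 of 2655 in cDC1. The 12 listed genes were not held to that share of cells, so the comparison is rough. In pDC 4 of the 11 measured class II genes were set apart downwards, against 3.52% of all measured genes. These were H2-Ab1, H2-Eb1, H2-Ob and Ciita, the activator of class II genes. For class I, Psmb9, an immunoproteasome subunit, was at 3.06 to 4.54 in cDC1 and at 0.736 to 2.0 in cDC2, again below 4-fold, and none of the 14 class I genes was set apart in any label. Their summed level was 47.8 to 94.8 in DC_mature, 54.0 to 63.4 in cDC1, 38.6 to 79.0 in pDC and 46.1 to 69.4 in cDC2, which overlapped.

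Co-stimulatory genes were also lowest in pDC. Cd80 was at 4.76 to 17.8 in DC_mature, 1.80 to 4.31 in cDC1 and 0.502 to 3.98 in cDC2, and at 0 in each of the 5 mice in pDC. Cd86 was at 6.43 to 21.6 in DC_mature and 2.03 to 11.4 in cDC2, higher in DC_mature in 7 of 7 mice. Tnfsf9, the ligand of 4-1BB, was at 3.63 to 17.4 against 0.838 to 3.88. The median log2 ratio to cDC2 over the 15 measured genes of the list was 1.52 in DC_mature, where the median of all genes was -0.22, and 1 gene, the retinoic acid enzyme Aldh1a2, was set apart upwards. In pDC 6 of 11 were set apart downwards (Cd40, Cd80, Cd86, Icosl, Tnfsf9 and Socs3) and Cd200 upwards, where 3.52% and 2.94% of all measured genes were.

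Of 18 measured chemokines and cytokines, 5 were set apart upwards in DC_mature, namely Ccl5, Ccl17, Ccl22, Cxcl10 and Cxcl16, against 0.801% of all measured genes. Ccl17 and Ccl22 encode the ligands of CCR4 on regulatory and type 2 T cells. Ccl22 was at 11.3, 4.58 and 13.9 in C2, C5 and D5 and at 3.38, 5.29, 2.55 and 14.4 in F1, F3, M1 and M3, against at most 0.396 in cDC2, and Ccl17 was at 4.78 to 38.9 against at most 1.15. Both were also set apart upwards in cDC1, at 0.493 to 2.91 for Ccl22 and 0.353 to 10.9 for Ccl17, and both were found in no pDC. Ccl5 was at 13.5, 31.6 and 29.3 in the mice F1, F3 and M1 and at 0.750 to 5.08 in the other 4, against at most 0.745 in cDC2. In pDC, Ccl6, Ccl9, Cxcl16, Il1b and Tnf were set apart downwards of 10 measured, against 3.52% of all measured genes.

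**Figure D5:**
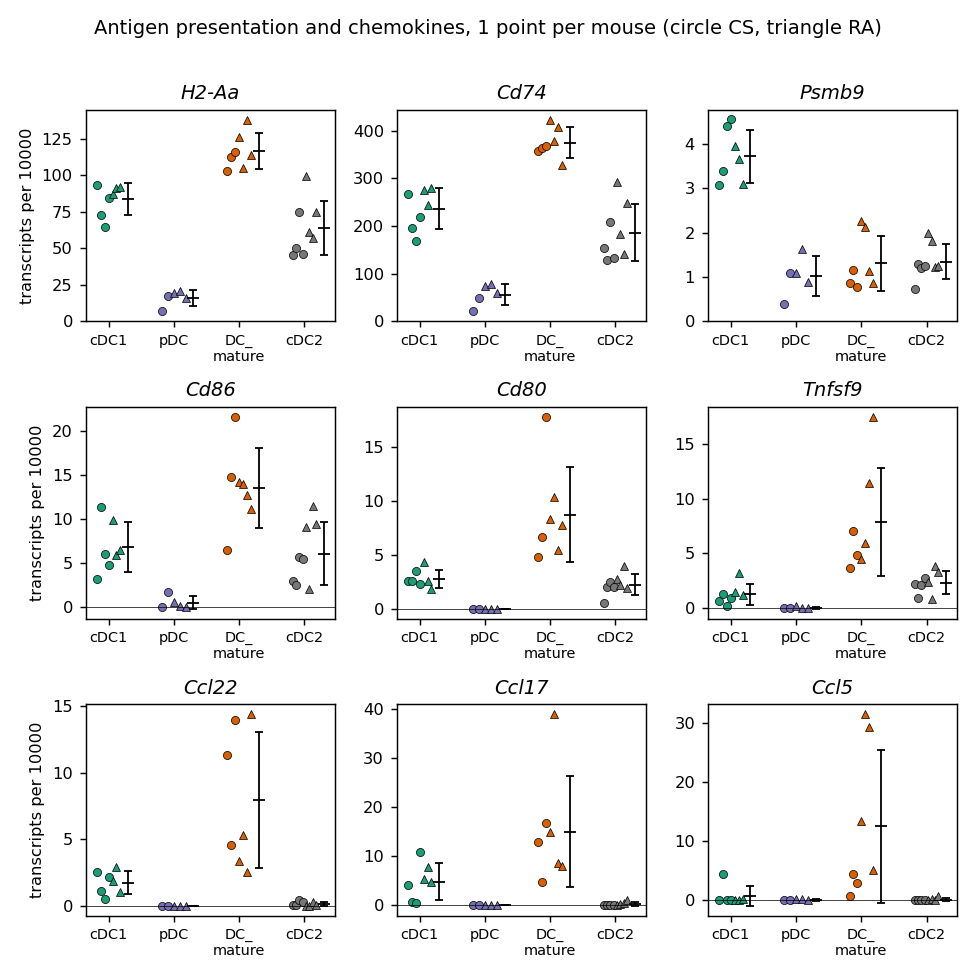
Level of antigen presentation, co-stimulation and chemokine genes in transcripts per 10000 (vertical axis) by label (horizontal axis), 1 point per mouse (circle CS, triangle RA), with mean and SD. H2-Aa in DC_mature lies at 103 to 138 above every mouse of the other labels, Psmb9 is highest in cDC1 (3.06 to 4.54), and pDC lie lowest for H2-Aa, Cd74, Cd80 and Cd86.

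Flt3, the receptor that dendritic cell development depends on, was at 2.61 to 4.64 in cDC1, 1.99 to 4.38 in cDC2, 1.51 to 3.71 in pDC and 0.516 to 2.29 in DC_mature, a sequence in which neighbours overlapped. Csf1r, the receptor of the macrophage lineage, was at 0.0695 to 0.143 in cDC1 and 0 to 0.248 in pDC, and was set apart downwards in both, but at 0.531 to 2.07 in DC_mature beside 0.360 to 1.80 in cDC2.

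Xcl1, the ligand of XCR1, was highest in cytotoxic NK and T cells, at 1.67 ± 0.718 (SD, n = 8), and Ccl21a in lymphatic endothelium at 171 ± 32.7, where its reads are uncertain because near-identical copies exist. Ccl25, the ligand of CCR9, did not exceed 0.477 in any cell type. In pDC it was at 1.60 in C5 and at 0 to 0.324 in the other 4 mice. Flt3l did not exceed 0.0108 in any cell type.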

How the data were processed

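Single-cell RNA sequencing of lungs from 4 CS and 4 RA mice was analysed from the matrix of estimated counts deposited by the authors, whose values are not whole because ambient RNA was subtracted with SoupX by the authors (1.28% of values were whole). Per the submitters' processing notes, reads were mapped with STAR 2.7.3a and STARsolo to GRCm38.p6; the methods name GENCODE M22 with eGFP and tdTomato added, and transcripts of spliced and unspliced RNA were kept. The authors removed cells with under 1000 transcripts, under 7.5% unspliced or over 5% mitochondrial transcripts by their methods, although 1 cDC1, 1 DC_mature and 1 cDC2 cell exceeded 5% in the deposited values, and deposited the mitochondrial percent and the cell labels used here. Doublets were treated by leaving out the authors' Multiplet label (1025 cells) and 7 cell cycle cells, which left 32 types.

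Counts were scaled to 10000 per cell, averaged per mouse with at least 3 cells, then over mice. Ratios used levels plus 0.1. A gene was measured if found in 10% of cells of either label, and set apart if its mean was at least 4-fold different from cDC2 and it differed in that direction, by any amount, in every mouse with both labels. Named genes were up to 15 with the largest ratio to the other dendritic labels and up to 8 to all lung types, found in 50% of cells, up to 8 lowest against cDC2, and list members. Shares per mouse were compared by an exact permutation test with Benjamini-Hochberg adjustment over 4 labels, where p-values measure the spread between these mice. Of 312 listed gene entries 306 were found, and the numbers of listed genes given in the Results count only entries found. The others are not analysed here, so their absence from the Results says nothing about their level. Some results that met the rules are not reported here. The members and lists were chosen with earlier results of these data known. Positions came from GENCODE and start sites from RefSeq. Of the steps, only the rule for genes set apart was tested on simulated data, drawn without differences in expression between mice. Alternatives were pseudocount 1, other filters, thinning to 2000 transcripts (without the cells under that depth), other denominators, summed counts and leaving out each mouse. Python 3.11.15, numpy 2.4.6, scipy 1.17.1, pandas 2.3.3 and matplotlib 3.10.9 were used.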

Additional observations from a re-analysis of the deposited data

Results flagged for a closer look

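In 19 groups of 4 to 7 mice, the highest or lowest mouse was compared with the others by Dixon's criterion at 95%, which chance meets in about 1 of 20 groups, and 2 groups met it. Both concerned cells labelled DC_mature. Fscn1 in mouse F3 was at 7.81 transcripts per 10000, with the next mouse at 3.32 and the lowest at 0. This mouse held 2 of the 6 cells with at least 3 core genes of the mature program. C1qa in mouse F1 was at 9.90, with the next mouse at 3.61 and the lowest at 0, and 5 of its 6 DC_mature cells held at least 2 C1q genes.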

How the results depend on the processing

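Under the alternative settings, 235 values were classed as the same, 18 as moved and 7 as reversed in sign. A difference in share was the same if it kept its sign and its p stayed on the same side of 0.05, whatever its size. Other values were the same if they stayed within the spread or within 1.5 times the reported count. The CS minus RA difference in share (percentage points among immune cells) kept its sign for DC_mature when each mouse was left out (-0.327 to -0.102), but not for the other 3 labels. Leaving out each mouse gave -0.109 to 0.288 for cDC1 and -0.0614 to 0.271 for cDC2, in both with the lowest value without F1, and -0.295 to 0.0600 for pDC, where the sign turned without C2 (0.00702), D2 (0.0309), F3 (0.0415) or M1 (0.0600). As a share of the 4 dendritic labels the pDC difference was 0.105. With thinned cells, Xcr1 was found in 34.9% of cDC1 and Ccr7 in 47.5% of DC_mature cells, and other shares fell too (Clec9a 52.4% and Wdfy4 87.3% of cDC1, Ccr9 75% of pDC, Fscn1 12.5% and Ccl22 57.5% of DC_mature). With pseudocount 1, genes set apart upwards and downwards numbered 14 and 7 in cDC1, 54 and 34 in pDC, and 16 and 4 in DC_mature. Without the requirement on single mice, 155 genes were set apart upwards in DC_mature. Leaving out a mouse gave 59 to 96 genes downwards in DC_mature, with 96 without F1. Leaving out C1q-bearing cells, chosen after seeing the data, gave 119. That setting also left F1 and M3 under 3 cells, so the direction had to hold in fewer mice. Asking for 2 core genes, also chosen after seeing the data, gave 12 cells in place of 6. Paired within the 4 lanes, an exact two-sided sign-flip test gave p = 0.75 for cDC1, pDC and cDC2 and 0.25 for DC_mature, where 0.125 is the smallest p it can give. The labels give no shared replicate numbers, so there was no block by number. With 40 to 66 cells a label, genes found in few cells were not detectable in single mice.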
